A study of Mus musculus with 40 samples.

Results

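The tumour necrosis factor (TNF) superfamily was described in the hearts of mice in which cardiomyocytes were made to express *Il11*. Members were the rows of 2 tables of gene expression, 1 for males and 1 for females, whose gene name begins with Tnfsf (ligands), Tnfrsf (receptors) or Traf (adaptors) followed by a digit, or is Fas, Cd40, Cd27, Lta, Ltb, Ltbr, Eda2r, Ngfr, Relt or Tradd. The rule found 47 members among 17831 genes: 10 ligands, 25 receptors, 11 adaptors and *Tnfsf13os*, a long noncoding RNA. For each sex 46 members were listed, and 45 of them passed a filter on low values. *Cd27* was listed in males only and *Tnfrsf17* in females only, and neither passed. Other genes of the superfamily, such as *Lta*, *Tnfsf4*, *Tnfsf14* and *Tnfrsf11b*, were not analysed here.

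PolyA RNA of 1 heart per library was sequenced from 40 mice, of which 38 could be placed in a group. CM-Il11-Tg mice were heterozygous for α-MHC-MerCreMer (MCM), a tamoxifen-inducible Cre driven by a cardiomyocyte promoter, and for *Rosa26-Il11*, a transgene that Cre switches on, and were studied 1, 3 and 6 weeks after tamoxifen (20 mg/kg on 5 days from 8 weeks of age). Control mice (labelled WT) were littermates that carried MCM without *Rosa26-Il11* and also received tamoxifen, and uninduced mice (labelled T0wk) were CM-Il11-Tg mice given none, so uninduced and control hearts differed in both genotype and tamoxifen. The *Rosa26-Il11* line was on C57BL/6N and the MCM line on C57BL6/J. Each group of each sex had 4 libraries, apart from male controls and male 6-week hearts with 3 each. In 2 male libraries the title gave one of these groups and the description the other, and both were left out. Labels did not give the controls' time after tamoxifen, and named the tissue heart where the methods named the left ventricle.

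Ligands of the superfamily are trimeric proteins, on the cell surface or shed from it, that cluster receptors of the same family on neighbouring cells. Receptors with a death domain, such as TNFR1 and Fas, recruit adaptors such as TRADD or FADD and can lead to NF-κB activation or cell death. Many of the others bind TRAF adaptors directly and feed the canonical and non-canonical NF-κB pathways, and some are decoys that bind a ligand without signalling. In the heart, TNF receptors are found on cardiomyocytes, endothelium, fibroblasts and leukocytes, while most costimulatory members are best known from lymphocytes and myeloid cells.

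Libraries held 16663513 to 65333832 reads on listed genes in males and 19147947 to 30929192 in females. *Il11* was at 0 to 0.166 CPM in controls, 15.5 to 49.1 in uninduced hearts and 328 to 819 in induced hearts, so no control library overlapped with an uninduced one. The 6 cardiomyocyte markers were all present, with summed levels of 48814 to 59119 CPM in male controls and 29954 to 40278 at 6 weeks, which did not overlap, and 33247 to 50882 and 29698 to 38758 in females, which did. At 6 weeks 1 of them was called lower in males and 2 in females. The 8 macrophage markers were called higher 8 of 8 at every week in both sexes, and their summed level rose from 205 to 335 CPM in male controls and 189 to 246 in female controls to 853 to 1208 and 1039 to 1191 at 6 weeks. Of 6 fibroblast markers 5 were called higher at 6 weeks in each sex, with sums of 509 to 699 CPM in male and 606 to 810 in female controls against 2412 to 2878 and 2910 to 5467. T-cell markers (sums of 1.78 to 3.83 and 1.89 to 4.05 CPM in controls, 7.87 to 9.54 and 9.80 to 17.8 at 6 weeks) were called higher in 1 of 5 tested in males and 5 of 7 in females, and B- and plasma-cell markers (5.06 to 12 and 6.48 to 11.5 CPM against 17.8 to 30.6 and 24.6 to 81.5) in 3 of 5 and 3 of 6. Dendritic-cell markers were called higher in 2 of 4 in males and 4 of 4 in females (0.600 to 2.12 and 1.45 to 2.11 CPM against 5.34 to 7.91 and 9.25 to 13.3), and endothelial markers lower in 4 of 6 in each sex (955 to 1080 and 853 to 972 CPM against 608 to 755 and 555 to 759). Smooth-muscle and pericyte markers were called lower in 2 of 5 in each sex, with sums of 685 to 824 and 711 to 749 CPM in controls against 397 to 441 and 406 to 607. The parts of these cell types in the results were not tested, and in whole hearts fewer cells of a type and less RNA per cell cannot be told apart.

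The question put to the members was which of them changed after *Il11* was switched on, when, and in which sex. Values are CPM, as scaled by the authors, and are listed by replicate number (1, 3 and 4 in male controls and male 6-week hearts). Differences are log2 fold changes on log2(CPM + 0.5) ± standard error from limma, and a member was called at an adjusted p under 0.05 over all genes of its table. The 3 weeks share their control libraries. In males 18 members were called higher and 5 lower at 1 week, 16 and 0 at 3 weeks and 18 and 1 at 6 weeks, of 45 tested. Of all 16931 tested male genes, 18.9% and 14.6% were called higher and lower at 1 week, 13.2% and 8.1% at 3 weeks, and 16.2% and 10.9% at 6 weeks. In females 13 members were called higher and 1 lower at 1 week, 19 and 1 at 3 weeks and 22 and 2 at 6 weeks, where the shares of all 16956 genes were 15.3% and 13.1%, 16.8% and 14.5%, and 21.7% and 21%.

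In each of the 6 comparisons a larger share of the members than of all genes was called higher and a smaller share lower, which describes the list and is no test of it. The median log2 fold change of the tested members was 0.36, 0.45 and 0.44 in males and 0.24, 0.32 and 0.47 in females at 1, 3 and 6 weeks, where that of all genes lay between -0.02 and 0.02. By role the medians were 0.89, 0.72 and 0.83 in males and 0.72, 1.196 and 1.33 in females for ligands, 0.27, 0.38 and 0.41 and 0.12, 0.10 and 0.27 for receptors, and 0.05, 0.10 and 0.26 and 0.20, 0.30 and 0.30 for adaptors. Of the 10 ligands, 5 in males (*Tnfsf11*, *Tnfsf8*, *Tnfsf15*, *Tnfsf18* and *Ltb*) and 5 in females (*Tnfsf9* in place of *Ltb*) passed the filter on low values only with the induced libraries, as did 4 of 23 receptors in males and 2 in females and 0 adaptors, so their entry was not independent of their level after induction and the medians and counts are no support. With ligands that had next to no reads in controls placed at their lower bound, the ligand medians were 1.25, 1.31 and 1.28 in males and 0.88, 1.73 and 1.955 in females. When libraries were scaled by total reads, the median of all genes rose to between 0.16 and 0.34. The share of calls that were higher also moved at 1, 3 and 6 weeks. Over all male genes it went from 56.4%, 62% and 59.9% to 90.9%, 90.8% and 85.9%. Over all female genes it went from 53.7%, 53.7% and 50.8% to 92.4%, 92.3% and 89%. Members called higher and lower were then 26 and 0, 24 and 0, and 21 and 0 in males and 27 and 0, 26 and 1, and 30 and 1 in females. Of all 16945 male genes, 6433 and 643, 3887 and 394, and 3611 and 594 were then called higher and lower. Of all 17012 female genes, 7023 and 578, 7138 and 599, and 8398 and 1037 were. The male falls were thus not called under total reads. Median-of-ratios scaling still called 5, 0 and 1 male members lower, as in the main fit. The TMM scaling of edgeR gave the same counts, but it nearly repeats the deposited scaling and is no separate check. At 1 week it called 3198 male genes higher against 3196 in the main fit, and 2586 female genes in both. With the 2 libraries of conflicting labels placed by their titles, 12, 0 and 0 male members were called at 1, 3 and 6 weeks, and placed by their descriptions 22, 16 and 21. Counts of all genes under these placements are not given here, so these counts are no result about the members. The library titled control held 511 CPM of *Il11*, and the one titled 6 weeks held 0.597.

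Called higher at all 3 weeks in both sexes were 10 members: the ligands *Tnfsf11*, *Tnfsf8* and *Tnfsf13b*, the receptors *Tnfrsf1a*, *Tnfrsf1b*, *Ltbr*, *Tnfrsf11a* and *Tnfrsf13b*, and the adaptors *Traf1* and *Tradd*. Of these, 7 kept every call when any 1 library was left out, and *Ltbr*, *Tnfrsf13b* and *Tradd* did not. No member was called lower at all 3 weeks in both sexes, and 16 tested members were called at no week in either sex. The share of all genes that met these conditions is not given here, so the counts describe the members only.

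**Figure D1:**
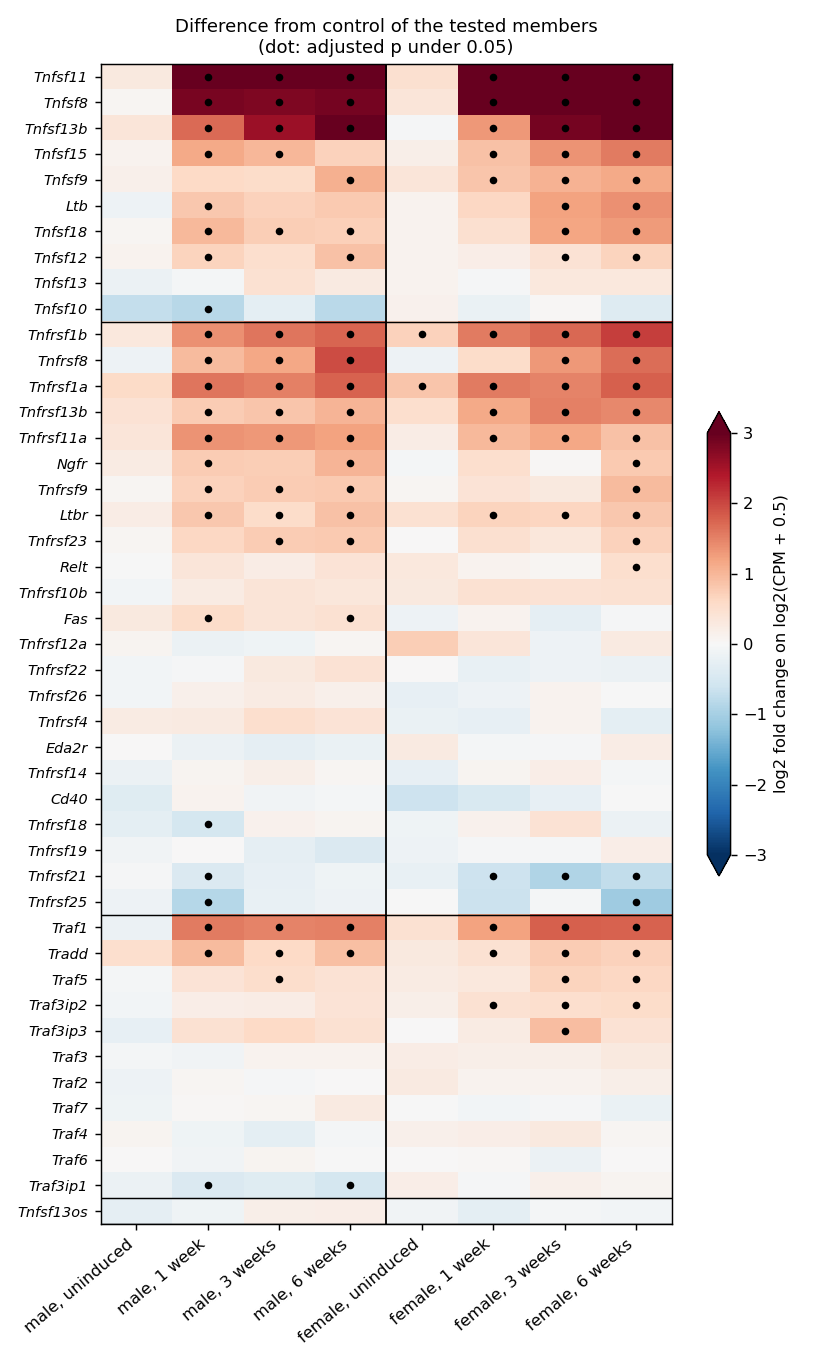
Differences from control (log2 fold change on log2(CPM + 0.5), colour, clipped at 3 in size) of the 45 tested members in 8 comparisons, 4 for each sex, with ligands, receptors, adaptors and *Tnfsf13os* separated by lines and a dot where the adjusted p was under 0.05. Dots are dense in the top rows of the ligands and receptors at all 3 weeks, and the uninduced columns hold 0 dots in males and 2 in females.

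Of the members called higher at every week in both sexes, 6 rose by 1 or more on the log2 scale in all 6 comparisons. The sequence in front of their start sites is shown. Whether these members vary together was not tested. RefSeq windows (GRCm38.p6, a build other than that of the counts) covering 250 bases before a start were found for 38 members, with 42 windows in all, since some genes have more than 1 start. Both strands were searched for the STAT motif TTCNNNGAA, the factor family downstream of the IL11 receptor, for the AP-1 motif TGANTCA, and for the NF-κB consensus. Letters in capitals mark a match, and the other letters hold none of the 3 motifs.

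Windows of the 6 members, 5′ to 3′ on the strand of the gene, with the start site after the last base:
Tnfsf11, chr14:78308044-78308293, minus strand: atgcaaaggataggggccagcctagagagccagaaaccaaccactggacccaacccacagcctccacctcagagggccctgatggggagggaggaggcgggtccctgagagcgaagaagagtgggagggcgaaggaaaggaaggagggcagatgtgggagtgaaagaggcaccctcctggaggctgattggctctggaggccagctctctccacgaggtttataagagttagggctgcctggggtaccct
Tnfsf8, chr4:63861285-63861534, minus strand: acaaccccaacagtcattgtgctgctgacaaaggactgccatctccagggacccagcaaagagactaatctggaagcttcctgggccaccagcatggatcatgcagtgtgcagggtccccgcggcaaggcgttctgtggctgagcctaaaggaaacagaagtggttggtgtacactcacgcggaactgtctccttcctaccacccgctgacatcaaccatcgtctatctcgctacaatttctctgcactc
Tnfsf13b, chr8:10006217-10006466, plus strand: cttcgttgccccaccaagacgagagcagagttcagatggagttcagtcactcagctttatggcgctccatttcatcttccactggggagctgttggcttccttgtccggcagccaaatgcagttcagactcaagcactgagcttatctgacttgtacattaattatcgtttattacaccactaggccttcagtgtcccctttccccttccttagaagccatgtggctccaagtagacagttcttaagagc
Tnfrsf1a, chr6:125349473-125349722, plus strand: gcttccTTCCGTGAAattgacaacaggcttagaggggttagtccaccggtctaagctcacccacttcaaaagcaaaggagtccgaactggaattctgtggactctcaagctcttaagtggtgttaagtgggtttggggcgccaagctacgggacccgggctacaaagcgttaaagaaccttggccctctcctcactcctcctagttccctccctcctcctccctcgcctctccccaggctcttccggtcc
Tnfrsf1b, chr4:145246871-145247120, minus strand: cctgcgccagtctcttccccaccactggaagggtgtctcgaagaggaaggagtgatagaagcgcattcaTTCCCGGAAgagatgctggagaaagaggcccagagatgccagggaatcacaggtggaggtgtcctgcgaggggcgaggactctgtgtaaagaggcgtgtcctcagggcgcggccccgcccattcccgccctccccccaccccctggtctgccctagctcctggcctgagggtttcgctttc
Traf1, chr2:34961773-34962022, minus strand: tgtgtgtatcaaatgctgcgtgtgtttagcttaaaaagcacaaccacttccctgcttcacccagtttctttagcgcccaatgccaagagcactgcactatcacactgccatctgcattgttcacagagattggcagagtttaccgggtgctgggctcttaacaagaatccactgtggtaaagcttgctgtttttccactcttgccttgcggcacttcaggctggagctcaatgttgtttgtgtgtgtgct

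The 2 receptors of TNF itself each held 1 STAT match, beginning at base -244 of *Tnfrsf1a* and base -181 of *Tnfrsf1b* (the last base before the start is -1), and the other 4 windows held no match to any of the 3 motifs. A further start of *Tnfsf13b*, whose window overlaps the one shown, had 1 AP-1 match. Among all members, 7 of 42 windows (16.7%) held the STAT motif, 5 (11.9%) the NF-κB consensus and 5 (11.9%) the AP-1 motif, against 7.02%, 7.25% and 6.75% of the 32851 windows of all genes. The STAT windows belonged to *Fas*, *Ltb*, *Tnfrsf18*, *Tnfrsf1a*, *Tnfrsf1b*, *Tnfrsf25* and *Tnfrsf9*, members of which some were called higher and some lower in at least 1 sex, and a match describes letters, not binding.

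The ligand with the largest fitted rise was *Tnfsf11* (ENSMUSG00000022015, chr14:78514885-78545490, minus strand; GRCm39, as for all gene positions here), which encodes RANKL, the factor that drives osteoclast formation through RANK. Male controls held 0, 0 and 0 CPM, and male hearts 6.83, 9.54, 9.74 and 5.95 at 1 week, 10.53, 8.90, 8.28 and 6.51 at 3 weeks and 8.79, 13.9 and 5.22 at 6 weeks. Female controls held 0, 0, 0.05003 and 0 CPM, and female hearts 5.94, 6.58, 4.10 and 5.42, 9.08, 6.57, 8.82 and 7.82 and 11.7, 12.9, 19.4 and 10.4 at the same weeks. The transcript was thus next to absent from control hearts, with 1 read in 7 libraries, and present in all 23 induced hearts at 98 to 552 reads.

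Taking 3 reads as the floor for controls (the highest floor among their libraries), *Tnfsf11* was at least 70.6-fold, 75.3-fold and 81.8-fold higher in males at 1, 3 and 6 weeks and at least 33.1-fold, 48.5-fold and 81.8-fold higher in females. Fitted log2 fold changes were 4.06 ± 0.25 in males and 3.54 ± 0.23 in females at 1 week (limma adjusted p = 5.20e-10 and 4.81e-10), and 4.19 ± 0.27 and 4.75 ± 0.23 at 6 weeks (adjusted p = 7.75e-10 and 3.83e-12). These fitted values depend on the pseudocount, and the bounds cover counting error only. In males the 1-, 3- and 6-week groups overlapped, whereas in females all 6-week hearts lay above all 3-week and 1-week hearts, and the step from 1 to 6 weeks was called (1.21 ± 0.23, adjusted p = 0.00935), though not without 1-week replicate 3 (adjusted p = 0.0530) or with a pseudocount of 0.1 (adjusted p = 0.177).

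*Tnfsf8* (ENSMUSG00000028362, chr4:63749542-63779592, minus strand), the ligand of CD30 on activated lymphocytes, was likewise near 0 in controls, with 0 to 2 reads per control library. Male hearts held 3.55, 3.97, 4.12 and 2.06 CPM at 1 week, 4.40, 5.97, 2.07 and 1.84 at 3 weeks and 4.93, 3.04 and 2.57 at 6 weeks against 0 to 0.0757 in controls. Female hearts held 2.77, 6.14, 4.47 and 4.03, 8.04, 4.41, 7.05 and 5.64 and 9.59, 12.8, 16.8 and 6.13 against 0 to 0.0554. No induced heart overlapped with a control, and the rise was at least 30.9-fold in males and 68.2-fold in females at 6 weeks. Fitted log2 fold changes were 2.85 ± 0.30, 2.81 ± 0.30 and 2.88 ± 0.32 in males (highest adjusted p = 1.61e-06) and 3.17 ± 0.25, 3.66 ± 0.25 and 4.41 ± 0.25 in females (highest adjusted p = 5.34e-09). The male weeks overlapped with one another, while in females the level at 6 weeks was called above that at 1 week (1.24 ± 0.25, adjusted p = 0.0115) with 1 heart of each week overlapping, a call lost without 1-week replicate 1 or 6-week replicate 2 or 3 (adjusted p = 0.0549 to 0.0586) or with a pseudocount of 0.1 (adjusted p = 0.0606) or in a fit of only the 2 groups (adjusted p = 0.0993).

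*Tnfsf13b* (ENSMUSG00000031497, chr8:10056467-10089072, plus strand), which encodes BAFF, a survival factor for B cells, was readable in controls and climbed with time. Male controls held 1.16, 1.10 and 1.42 CPM, followed by 4.72, 7.10, 7.18 and 2.696 at 1 week, 11.5, 11.1, 7.79 and 8.76 at 3 weeks and 14.2, 13.5 and 12.2 at 6 weeks. Female controls held 1.81, 1.69, 1.25 and 0.887 CPM, followed by 2.95, 5.21, 3.97 and 4.73, 11.1, 9.39, 18.8 and 15.0 and 17.6, 19.6, 20.6 and 14.8. Each male week lay wholly above the week before it, and in females 3-week hearts lay wholly above 1-week hearts. Log2 fold changes against control were 1.70 ± 0.23, 2.56 ± 0.23 and 3.00 ± 0.25 in males and 1.31 ± 0.21, 2.86 ± 0.21 and 3.30 ± 0.21 in females (adjusted p from 1.11e-10 to 6.79e-05). It was the only member called between weeks in both sexes: in females from 1 to 3 weeks (1.55 ± 0.21, adjusted p = 8.44e-04) and from 1 to 6 weeks (2.00 ± 0.21, adjusted p = 3.04e-05), and in males from 1 to 6 weeks (1.302 ± 0.23, adjusted p = 0.0320). The male call was lost without 1-week replicate 1 or 6-week replicate 3 or 4 (adjusted p = 0.0677 to 0.102) or in a fit of only the 2 groups (adjusted p = 0.315), and the part of B and plasma cells, whose summed marker levels are given above, was not tested.

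**Figure D2:**
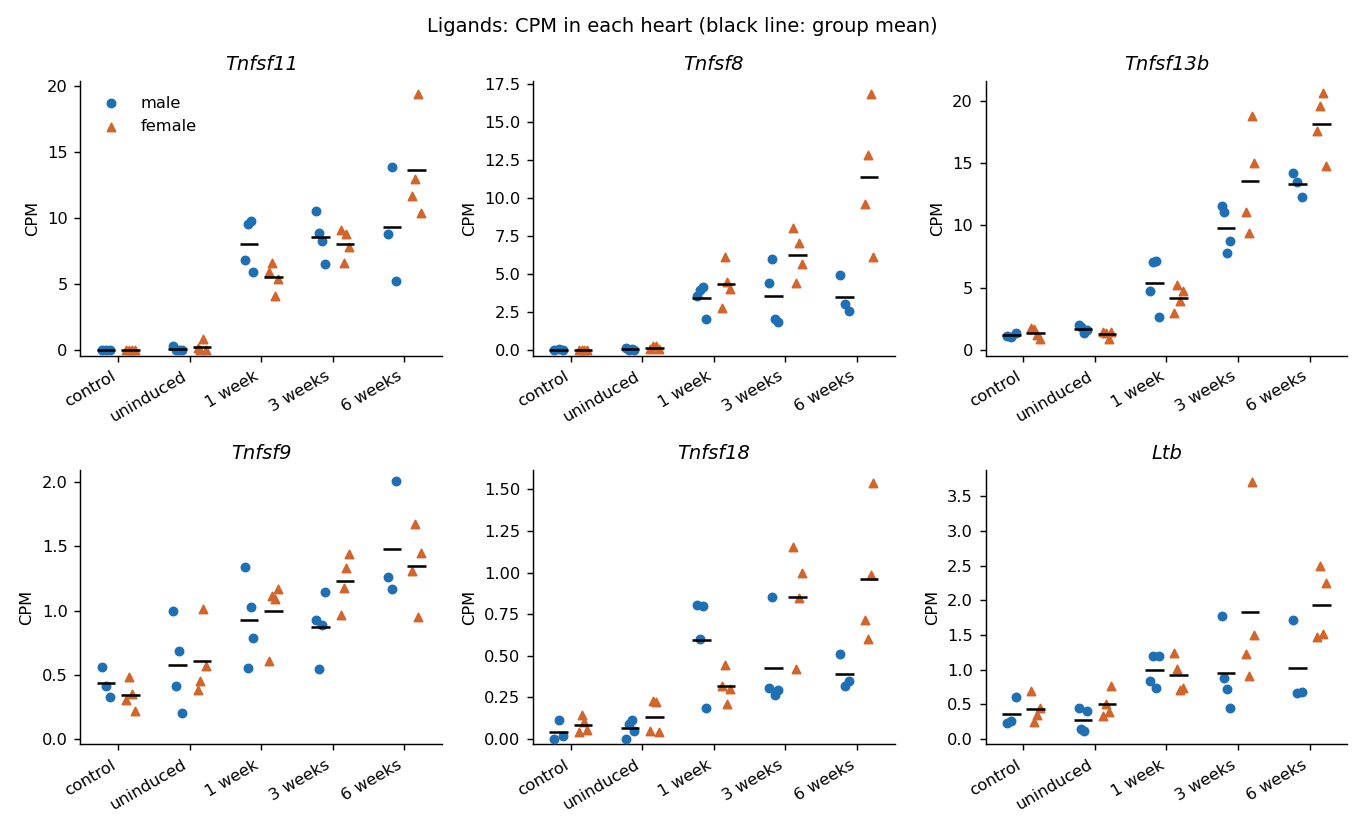
CPM (y axis, linear) of 6 ligands in every heart of each group (x axis: control, uninduced, and 1, 3 and 6 weeks after tamoxifen), with circles for males, triangles for females and a black line at each group mean. *Tnfsf11* and *Tnfsf8* sit at or near 0 in control hearts and lie between 1.84 and 19.4 CPM in induced hearts, and *Tnfsf13b* climbs from 1 to 6 weeks.

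Ligands that costimulate T cells were also called higher. *Tnfsf9*, the CD137 ligand, was at 0.562, 0.417 and 0.326 CPM in male and 0.301, 0.484, 0.350 and 0.222 in female controls and at 1.26, 1.17 and 2.01 and 1.31, 1.68, 0.948 and 1.45 at 6 weeks, with no overlap in either sex. The rise at 6 weeks was 1.06 ± 0.27 in males (adjusted p = 0.00540) and 1.13 ± 0.18 in females (adjusted p = 5.90e-05). In females it was also called at 1 and 3 weeks (0.82 ± 0.18 and 1.04 ± 0.18), and in males it was not (0.59 ± 0.25, adjusted p = 0.0746, and 0.55 ± 0.25, adjusted p = 0.131). The difference between the sexes was not tested for this or any other member, since the 2 tables were scaled separately.

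*Tnfsf18*, the ligand of GITR, had 0 to 3 reads in control libraries and was at 0.803, 0.599, 0.798 and 0.187 CPM in males at 1 week and 0.714, 0.601, 0.983 and 1.54 in females at 6 weeks. Against the floor of 3 reads it was at least 5.25-fold higher in males at 1 week and at least 5.77-fold higher in females at 6 weeks. Males were called at all 3 weeks (0.97 ± 0.23, 0.74 ± 0.23 and 0.72 ± 0.25) and females at 3 and 6 weeks (1.18 ± 0.20 and 1.28 ± 0.20; at 1 week 0.48 ± 0.20, adjusted p = 0.0809). The male call at 3 weeks was lost without control replicate 1 or 4 or 3-week replicate 2 (adjusted p = 0.0781 to 0.0969) or with a pseudocount of 2 (adjusted p = 0.0594) and that at 6 weeks without control replicate 1 or 3 or 4 or 6-week replicate 1 or 4 (adjusted p = 0.0512 to 0.111) or with a pseudocount of 2 (adjusted p = 0.0856).

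*Tnfsf15*, which encodes TL1A, the ligand of DR3, had 0 to 1 reads in control libraries. It was at 1.10, 0.738, 0.233 and 0.524 CPM in males at 1 week and 0.437, 0.388 and 0.140 at 6 weeks, and at 0.178, 0.707, 0.418 and 0.434 and 0.674, 1.72, 0.773 and 0.956 in females. All induced hearts lay above all controls. Lower bounds were 5.72-fold and 2.83-fold in males and 2.61-fold and 6.20-fold in females at these weeks. Females were called at all 3 weeks (adjusted p = 0.00210, 1.98e-05 and 2.30e-06), and males at 1 and 3 weeks (adjusted p = 0.00217 and 0.00798) but not at 6 weeks (adjusted p = 0.0712), where both count tests called it.

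*Ltb*, the membrane-bound lymphotoxin subunit made mainly by lymphocytes, was at 0.225, 0.265 and 0.602 CPM in male and 0.689, 0.242, 0.350 and 0.443 in female controls. At 6 weeks it was at 1.72, 0.671 and 0.676 in males and 1.47, 2.49, 1.51 and 2.25 in females, without overlap with control in either sex. In females the rise was called at 3 and 6 weeks (1.21 ± 0.26, adjusted p = 0.00125, and 1.38 ± 0.26, adjusted p = 2.73e-04). In males it was called at 1 week (0.80 ± 0.28, adjusted p = 0.0354) and not at 3 and 6 weeks (0.70 ± 0.28, adjusted p = 0.0849, and 0.77 ± 0.30, adjusted p = 0.0639). The male call was lost without control replicate 1 or 3 or 1-week replicate 2 or 4 (adjusted p = 0.0759 to 0.124) or with a pseudocount of 2 (adjusted p = 0.0554) or with edgeR (adjusted p = 0.0565). In windows of 60 bases, 18.5% of the *Ltb* transcripts are also found in a gene on the opposite strand, and whether reads were counted by strand is not given in the sources used here.

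Of the remaining ligands, 1 was called higher in both sexes and 1 lower in males. *Tnfsf12*, which encodes TWEAK, had means of 7.42 ± 1.13 CPM (SD, n = 3) in male controls and 15.5 ± 9.09 (n = 3) at 6 weeks, and 9.45 ± 0.746 and 15.5 ± 2.85 (n = 4 each) in females, and was called higher at 1 and 6 weeks in males and at 3 and 6 weeks in females. The male 1-week call was lost without control replicate 3 or 4 or 1-week replicate 2 or 4 (adjusted p = 0.0679 to 0.165) or with a pseudocount of 2 (adjusted p = 0.0514), the male 6-week call without control replicate 3 or 6-week replicate 4 (adjusted p = 0.0744 to 0.0902) or in a fit of only the 2 groups (adjusted p = 0.0999994) and the female 3-week call without control replicate 1 or 2 or 4 or 3-week replicate 2 or 3 or 4 (adjusted p = 0.0565 to 0.0828). *Tnfsf10*, which encodes the death ligand TRAIL, had means of 16.4 ± 2.91 CPM in male controls and 9.36 ± 3.23 at 1 week and was called lower there, a call lost without control replicate 3 or 4 or 1-week replicate 2 or 4 (adjusted p = 0.0507 to 0.114) or with the conflicting libraries placed by description (adjusted p = 0.0747) and under scaling by total reads. In females it ran from 10.03 CPM in controls to 7.42 at 6 weeks and was not called at any week.

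*Tnfsf13*, which encodes APRIL, the other ligand of TACI and BCMA, was at 0.750, 0.606 and 0.619 CPM in male controls and 1.07, 0.600 and 1.10 at 6 weeks, and at 0.603, 0.532, 0.700 and 0.443 and 0.832, 1.203, 0.808 and 0.524 in females. The groups overlapped and it was not called (male log2 fold change 0.28 ± 0.21, female 0.31 ± 0.22). Of the 60-base windows of *Tnfsf13* and *Tnfsf12* transcripts, 60.9% and 46.6% are also found in *Tnfsfm13*, a transcript that joins both genes, so reads of these genes may have been split or left uncounted. *Tnfsf13os*, on the opposite strand of the same locus, was at 0.172 to 0.920 CPM over all groups and was not called.

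Among the receptors, both receptors of TNF were called higher at every week in both sexes. *Tnfrsf1a* (ENSMUSG00000030341, chr6:125325566-125339632, plus strand) encodes TNFR1, the death-domain receptor found on most cells. Male hearts held 30.8, 30.2 and 40.2 CPM in controls, 107, 105, 102 and 97.6 at 1 week, 104, 105, 84.4 and 95.1 at 3 weeks and 108, 87.1 and 162 at 6 weeks. Female hearts held 32.9, 34.3, 45.4 and 38.2, 96.6, 129, 113 and 110.4, 113, 101, 109 and 103 and 107, 154, 139.7 and 124. Every induced heart lay above every control. The log2 fold changes were 1.61 ± 0.16, 1.52 ± 0.16 and 1.77 ± 0.18 in males and 1.56 ± 0.20, 1.49 ± 0.20 and 1.78 ± 0.20 in females (adjusted p from 3.38e-07 to 7.14e-06), and no step between weeks was called.

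*Tnfrsf1b* (ENSMUSG00000028599, chr4:144938938-144973477, minus strand) encodes TNFR2, which lacks a death domain and is most abundant on leukocytes and endothelium. Male hearts held 8.88, 8.37 and 13.2 CPM in controls and 27.9, 25.6, 23.6 and 28.9, 32.5, 28.6, 28.7 and 34.6 and 32.8, 30.8 and 39.9 at 1, 3 and 6 weeks. Female hearts held 8.61, 8.61, 10.2 and 7.70 and 21.0, 32.6, 26.7 and 27.1, 32.3, 22.9, 32.99 and 32.8 and 31.3, 36.8, 53.1 and 35.9. Controls and induced hearts were apart in both sexes, with log2 fold changes of 1.37 ± 0.15, 1.59 ± 0.15 and 1.74 ± 0.16 in males and 1.55 ± 0.16, 1.72 ± 0.16 and 2.08 ± 0.16 in females (adjusted p from 1.46e-09 to 1.06e-06). The macrophage markers were higher in the same groups (above), and their part in this was not tested.

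*Ltbr*, the lymphotoxin beta receptor, which acts through the non-canonical NF-κB pathway, rose from 22.4 to 26.01 CPM in male and 23.6 to 25.8 in female controls to 32.7 to 62.4 and 37.0 to 50.6 in induced hearts, with no overlap at any week. Log2 fold changes were 0.81 ± 0.16, 0.54 ± 0.16 and 0.87 ± 0.17 in males and 0.66 ± 0.14, 0.64 ± 0.14 and 0.82 ± 0.14 in females (highest adjusted p = 0.0173, in males at 3 weeks). That call was lost without control replicate 3 or 3-week replicate 1 (adjusted p = 0.0516 to 0.0938).

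*Tnfrsf11a*, which encodes RANK, the receptor of RANKL, was at 1.65, 1.02 and 2.08 CPM in male and 2.63, 2.71, 1.65 and 1.05 in female controls. At 6 weeks it was at 4.18, 5.33 and 3.36 and 4.24, 3.69, 4.81 and 3.11, without overlap. Log2 fold changes were 1.35 ± 0.22, 1.31 ± 0.22 and 1.21 ± 0.23 in males and 0.96 ± 0.23, 1.16 ± 0.23 and 0.88 ± 0.23 in females (highest adjusted p = 0.00432). Ligand and receptor of this pair therefore rose together, by unlike amounts.

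*Tnfrsf8*, which encodes CD30, a marker of activated lymphocytes, was close to 0 in controls, at 0, 0.227 and 0.179 CPM in males and 0.0431, 0.145, 0.150 and 0.0554 in females. Male hearts held 0.268, 1.15, 1.297 and 0.449 at 1 week and 2.23, 2.01 and 1.66 at 6 weeks, and female hearts 0.213, 0.595, 0.376 and 0.347 and 0.793, 1.76, 1.86 and 1.36. Log2 fold changes were 0.95 ± 0.25, 1.16 ± 0.25 and 1.97 ± 0.27 in males, each called, and 0.55 ± 0.20 (adjusted p = 0.0501, not called), 1.29 ± 0.20 and 1.67 ± 0.20 in females. In females, whose controls had 1 to 3 reads, it was at least 8.68-fold higher at 6 weeks. The step from 1 to 6 weeks was called in females (1.12 ± 0.20, adjusted p = 0.00532) and not in males (1.02 ± 0.25, adjusted p = 0.115), although the weeks did not overlap in either. The female call was lost in a fit of only the 2 groups (adjusted p = 0.0516).

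*Tnfrsf13b*, which encodes TACI, the receptor of BAFF and APRIL on B cells, was at 0.689, 0.436, 0.250 and 0.554 CPM in female controls and 1.94, 2.84, 1.72 and 2.19 at 6 weeks, with log2 fold changes of 1.14 ± 0.16, 1.51 ± 0.16 and 1.45 ± 0.16 (highest adjusted p = 1.09e-05) and no overlap at any week. In males it was at 0.375, 0.454 and 1.04 in controls and 2.28, 1.55 and 1.38 at 6 weeks. Male hearts overlapped with control at 1 and 3 weeks and not at 6 weeks. The male rises of 0.76 ± 0.27, 0.83 ± 0.27 and 1.02 ± 0.29 were called (adjusted p = 0.0344, 0.0311 and 0.0118), and lost at 1 week without control replicate 1 or 3 or 1-week replicate 1 or 2 (adjusted p = 0.0524 to 0.145) or in a fit of only the 2 groups (adjusted p = 0.0517) or with edgeR (adjusted p = 0.0518), at 3 weeks without control replicate 1 or 3 or 3-week replicate 2 or 3 or 4 (adjusted p = 0.0597 to 0.144) or with edgeR (adjusted p = 0.0533) and at 6 weeks without control replicate 1 or 3 or 6-week replicate 1 (adjusted p = 0.0546 to 0.0585). *Tnfrsf17*, which encodes BCMA, a plasma-cell receptor of the same ligands, was listed in females only and was too low to be tested, with 0 to 3 reads in control and 6 to 15 in 6-week libraries.

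*Tnfrsf9*, which encodes CD137 on activated T cells, was at 0 to 0.1303 CPM in male and 0.0484 to 0.250 in female controls and at 0.350 to 0.728 and 0.247 to 1.35 at 6 weeks, where 1 female heart overlapped with control. Log2 fold changes at 6 weeks were 0.78 ± 0.26 (adjusted p = 0.0290) and 0.94 ± 0.24 (adjusted p = 0.00404). Males were also called at 1 and 3 weeks. The male calls were lost at 1 week without control replicate 1 or 3 or 1-week replicate 1 or 3 (adjusted p = 0.0645 to 0.110) or with a pseudocount of 2 (adjusted p = 0.0699), at 3 weeks without control replicate 1 or 3 or 3-week replicate 1 or 2 (adjusted p = 0.0761 to 0.109) or in a fit of only the 2 groups (adjusted p = 0.0766) and at 6 weeks without control replicate 1 or 3 or 6-week replicate 1 (adjusted p = 0.0693 to 0.120) or with a pseudocount of 2 (adjusted p = 0.0583).

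*Ngfr*, the p75 neurotrophin receptor of nerve-associated and mesenchymal cells, was at 0.225, 0.568 and 0.782 CPM in male controls and 2.26, 0.918 and 1.66 at 6 weeks (1.03 ± 0.31, adjusted p = 0.0174). In females, control replicate 3 (2.45) lay above 3 of the 4 hearts of the 6-week group (1.82, 2.28, 2.49 and 1.45), and the call there (0.78 ± 0.29, adjusted p = 0.0341) was lost without control replicate 1 or 2 or 4 or 6-week replicate 2 or 3 (adjusted p = 0.0781 to 0.114) or in a fit of only the 2 groups (adjusted p = 0.0545) or with edgeR (adjusted p = 0.0963) or with DESeq2 (adjusted p = 0.0773). The male calls were lost at 1 week without control replicate 1 or 3 or 1-week replicate 1 or 3 or 4 (adjusted p = 0.0693 to 0.211) or with a pseudocount of 2 (adjusted p = 0.0581) or with edgeR (adjusted p = 0.0542) and at 6 weeks without control replicate 1 or 6-week replicate 1 (adjusted p = 0.0850 to 0.0921).

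**Figure D3:**
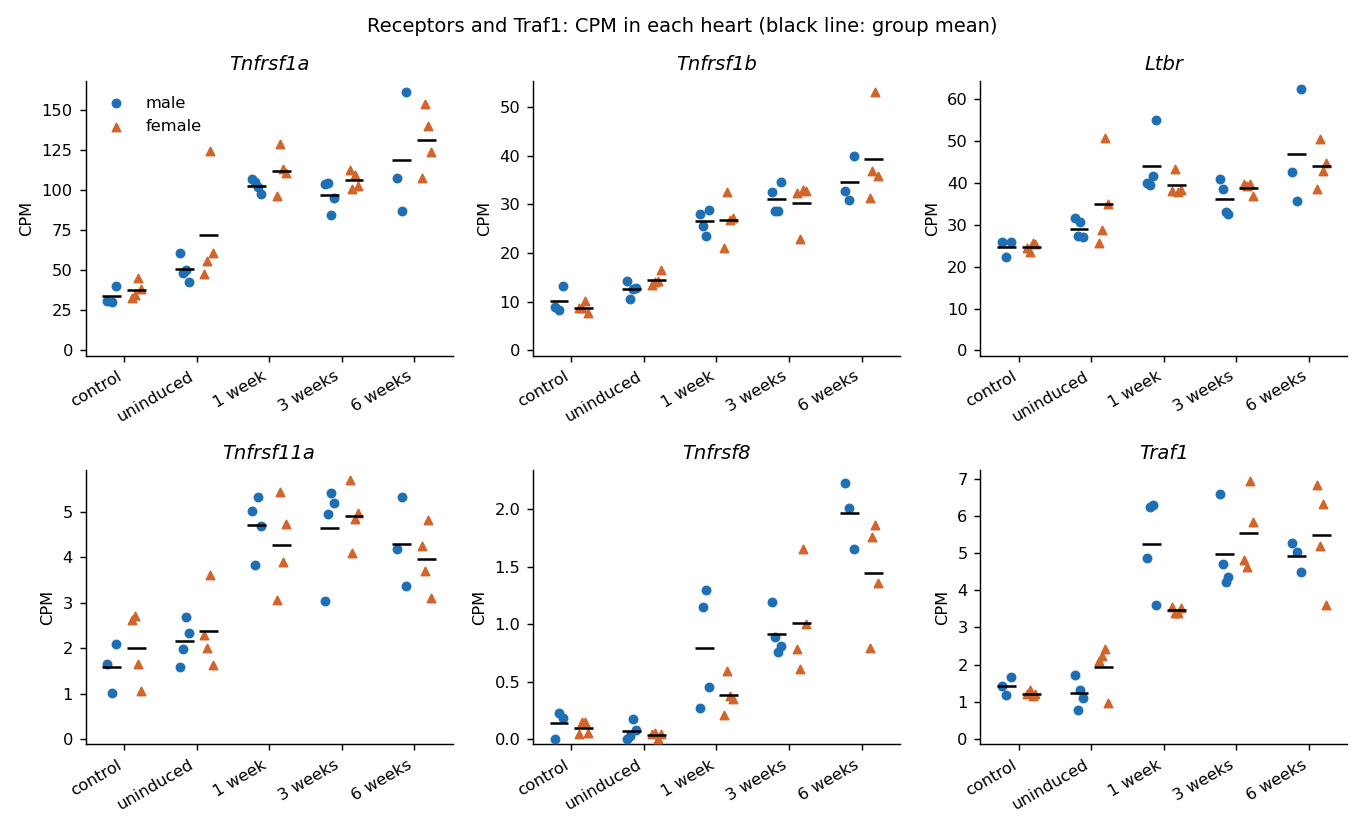
CPM (y axis, linear) of 5 receptors and *Traf1* in every heart of each group (x axis: control, uninduced, and 1, 3 and 6 weeks after tamoxifen), with circles for males, triangles for females and a black line at each group mean. All induced hearts lie above all controls for *Tnfrsf1a*, *Tnfrsf1b*, *Ltbr* and *Traf1*, and 1 uninduced female heart reaches 125 CPM for *Tnfrsf1a*.

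Few receptors fell. *Tnfrsf21*, which encodes the death receptor DR6, was called lower in females at all 3 weeks, from a mean of 21.6 ± 0.7104 CPM in controls to 14.0 ± 1.51, 11.3 ± 1.08 and 12.9 ± 1.88 (SD, n = 4 each), and in males at 1 week only, from 16.4 ± 1.34 (n = 3) to 12.1 ± 1.31 (n = 4). It was the only member called lower at every week in a sex. Under scaling by total reads the female log2 fold change was -0.27, -0.57 and -0.34 and was called at 3 and 6 weeks, and the male value turned to 0.01 and 0.07 at 3 and 6 weeks. The male call was lost without control replicate 3 or 4 or 1-week replicate 2 (adjusted p = 0.0624 to 0.115).

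*Tnfrsf25*, which encodes DR3, the receptor of TL1A, was at 12.5, 5.15 and 6.37 CPM in male controls and 3.48, 3.73, 3.13 and 5.73 at 1 week (-0.85 ± 0.30, adjusted p = 0.0377). In females it was at 4.18, 4.50, 4.40 and 7.43 in controls and 5.19, 1.68, 1.05 and 1.94 at 6 weeks (-1.07 ± 0.40, adjusted p = 0.0386). The groups overlapped in both, and both calls were lost under scaling by total reads (-0.52 and -0.72). They were also lost without control replicate 1 or 4 or 1-week replicate 1 or 2 or 3 (adjusted p = 0.0505 to 0.247) in males and without control replicate 2 or 3 or 4 or 6-week replicate 2 or 3 or 4 (adjusted p = 0.0541 to 0.131) or with edgeR (adjusted p = 0.0689) in females. Of its 60-base windows, 14.6% are also found in *Espn* on the opposite strand.

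*Tnfrsf18*, which encodes GITR on regulatory T cells, was at 0.750, 1.44 and 1.45 CPM in male controls and 0.636, 0.553, 0.731 and 0.786 at 1 week, a called fall (-0.52 ± 0.17, adjusted p = 0.0282) that overlapped by 1 control and was lost under scaling by total reads (-0.29) and without control replicate 3 or 4 or 1-week replicate 1 or 2 (adjusted p = 0.0521 to 0.144) or in a fit of only the 2 groups (adjusted p = 0.0774). In females it was at 0.388 to 0.774 in controls and 0.211 to 1.07 at 6 weeks and was not called. Its ligand was called higher in both sexes (above).

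Of the other receptors, *Tnfrsf23*, a decoy receptor for TRAIL, was called higher at 6 weeks in both sexes, from 2.18 ± 0.631 to 4.33 ± 2.26 CPM in males (n = 3 each) and from 2.45 ± 0.763 to 4.21 ± 1.05 in females (n = 4 each), and in males at 3 weeks. The male calls were lost at 3 weeks without control replicate 1 or 3 or 3-week replicate 1 or 2 or 3 or 4 (adjusted p = 0.0541 to 0.185) or with a pseudocount of 2 (adjusted p = 0.0528) or with edgeR (adjusted p = 0.0577) and at 6 weeks without control replicate 1 or 3 or 6-week replicate 4 (adjusted p = 0.0948 to 0.231) or in a fit of only the 2 groups (adjusted p = 0.128). It shares 13.7% of its 60-base windows with *Tnfrsf22*, so reads between the pair are uncertain. *Fas*, the death receptor of FAS ligand, was called higher in males at 1 and 6 weeks, with means of 13.5 CPM in controls and 20.1 and 19.1 at these weeks, and in females it had means of 19.8 in controls and 19.3 at 6 weeks and was not called at any week. The male 6-week call was lost without control replicate 1 or 3 or 6-week replicate 3 (adjusted p = 0.0563 to 0.168) or in a fit of only the 2 groups (adjusted p = 0.140). *Relt* was called higher in females at 6 weeks (2.75 to 3.99 CPM), a call lost without control replicate 1 or 2 or 6-week replicate 1 or 2 or 3 (adjusted p = 0.0657 to 0.155) or in a fit of only the 2 groups (adjusted p = 0.0609) or with edgeR (adjusted p = 0.0628).

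Receptors called at no week in either sex were *Cd40*, *Eda2r*, *Tnfrsf10b*, *Tnfrsf12a*, *Tnfrsf14*, *Tnfrsf19*, *Tnfrsf22*, *Tnfrsf26* and *Tnfrsf4*. *Tnfrsf12a*, which encodes Fn14, the receptor of TWEAK, had group means of 32.7 to 37.8 CPM in males and 25.3 to 53.4 in females and the highest female mean in uninduced hearts. Of its 60-base windows, 67.1% are also found in *Hcfc1r1* on the opposite strand. *Cd40*, the receptor through which T cells activate B cells and macrophages, had means of 2.06 CPM in male and 2.57 in female controls and 1.97 and 2.57 at 6 weeks. A call that is missing does not show that the level did not change. *Cd27* was listed in males only, with group means of 0.182 to 0.386 CPM, and was not tested.

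Of the 11 adaptors, *Traf1* (ENSMUSG00000026875, chr2:34831762-34851837, minus strand), an adaptor whose gene is a known target of NF-κB, changed most. Male hearts held 1.42, 1.17 and 1.66 CPM in controls and 4.85, 6.22, 6.28 and 3.60, 6.59, 4.71, 4.21 and 4.34 and 5.27, 5.01 and 4.50 at 1, 3 and 6 weeks. Female hearts held 1.21, 1.31, 1.15 and 1.22 and 3.56, 3.39, 3.39 and 3.51, 4.80, 4.64, 6.93 and 5.82 and 6.82, 5.20, 6.32 and 3.61. Induced hearts lay above controls throughout, by 1.56 ± 0.21, 1.496 ± 0.21 and 1.505 ± 0.22 in males and 1.203 ± 0.19, 1.80 ± 0.19 and 1.77 ± 0.19 in females (highest adjusted p = 8.25e-05). *Tradd*, which couples TNFR1 to its downstream kinases, was called higher at all 3 weeks in both sexes, with means of 2.86 ± 0.434 CPM (n = 3) in male and 3.57 ± 0.325 (n = 4) in female controls and 5.77 ± 0.504 and 6.06 ± 0.636 at 6 weeks. The male 3-week call was lost without control replicate 1 (adjusted p = 0.0725) or with the conflicting libraries placed by description (adjusted p = 0.105).

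*Traf5*, an adaptor of several costimulatory receptors, was called higher in females at 3 and 6 weeks (3.34 CPM in controls, 5.66 and 5.47) and in males at 3 weeks (3.40 to 5.08), a male call lost without control replicate 3 or 3-week replicate 3 or 4 (adjusted p = 0.119 to 0.326) or with no filter on low values (adjusted p = 0.0511) or under median-of-ratios scaling (adjusted p = 0.0520) or in a fit of only the 2 groups (adjusted p = 0.101) or with edgeR (adjusted p = 0.0544). *Traf3ip2*, the adaptor of the interleukin-17 receptor, was called higher in females at all 3 weeks, from 3.49 to 5.23 CPM at 6 weeks, and not in males. Its female call at 1 week was lost without control replicate 1 or 2 or 1-week replicate 3 or 4 (adjusted p = 0.0812 to 0.133) or in a fit of only the 2 groups (adjusted p = 0.0772) and that at 3 weeks without control replicate 1 (adjusted p = 0.0754). *Traf3ip1*, a component of intraflagellar transport, was called lower in males at 1 and 6 weeks (9.72 CPM in controls, 6.98 and 6.60), calls lost under scaling by total reads (-0.10 and -0.34), the first also without control replicate 1 or 1-week replicate 2 (adjusted p = 0.0534 to 0.131) or with the conflicting libraries placed by description (adjusted p = 0.0921) and the second without control replicate 1 (adjusted p = 0.0822) or in a fit of only the 2 groups (adjusted p = 0.0927). *Traf3ip3* was called higher in females at 3 weeks only, from a mean of 0.524 CPM in controls to 1.55. The 3-week hearts held 1.15, 1.03, 3.06 and 0.940 CPM, so replicate 3 raised that mean.

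The shared TRAF proteins were not called at any week in either sex. At 6 weeks *Traf2* had means of 15.0 CPM in males and 15.1 in females against 14.8 and 13.3 in controls, *Traf3* 26.5 and 23.2 against 24.7 and 18.9, and *Traf6* 11.8 and 11.5 against 11.95 and 11.3. *Traf7* was at 45.8 and 34.7 against 37.3 and 39.9, and *Traf4* was at 4.98 and 4.19 against 4.97 and 4.11.

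Ligands and their receptors were also set side by side by level, as CPM per kb of exon. *Tnfsf11* stood below *Tnfrsf11a* in all 7 control and 8 uninduced hearts and above it in all 23 induced hearts, with means of 4.14 against 0.567 CPM per kb in males and 6.07 against 0.525 in females at 6 weeks. *Tnfsf8* stood above *Tnfrsf8* in none of the 7 controls, in 5 of 8 uninduced hearts and in all 23 induced hearts (0.919 against 0.569 and 2.97 against 0.417 at 6 weeks). Control libraries held 0 to 2 reads of *Tnfsf8* and 0 to 11 of *Tnfrsf8*, and uninduced ones 0 to 6 and 0 to 3. The order of this pair before induction therefore rests on few reads. *Tnfsf13b* stood above *Tnfrsf13b* in 5 of 7 controls, 3 of 8 uninduced and 22 of 23 induced hearts (1.94 against 0.564 and 2.64 against 0.705 at 6 weeks). In these pairs the ligand's transcript passed that of the receptor, or moved further above it, after induction.

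In other pairs the order stayed as it was. *Tnfsf9* stood above *Tnfrsf9* in all 38 hearts of the groups. *Tnfsf12* stood below *Tnfrsf12a*, *Tnfsf15* below *Tnfrsf25* and *Ltb* below *Ltbr* in every heart, and *Tnfsf18* stood below *Tnfrsf18* in all but 3 induced hearts. At 6 weeks *Ltb* was at 0.661 and 1.25 CPM per kb against 19.6 and 18.5 for *Ltbr*, and *Tnfsf12* at 8.29 and 8.27 against 18.9 and 18.5 for *Tnfrsf12a*. These are levels over all cells of the heart, and the cells that make each transcript are not known from them.

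**Figure D4:**
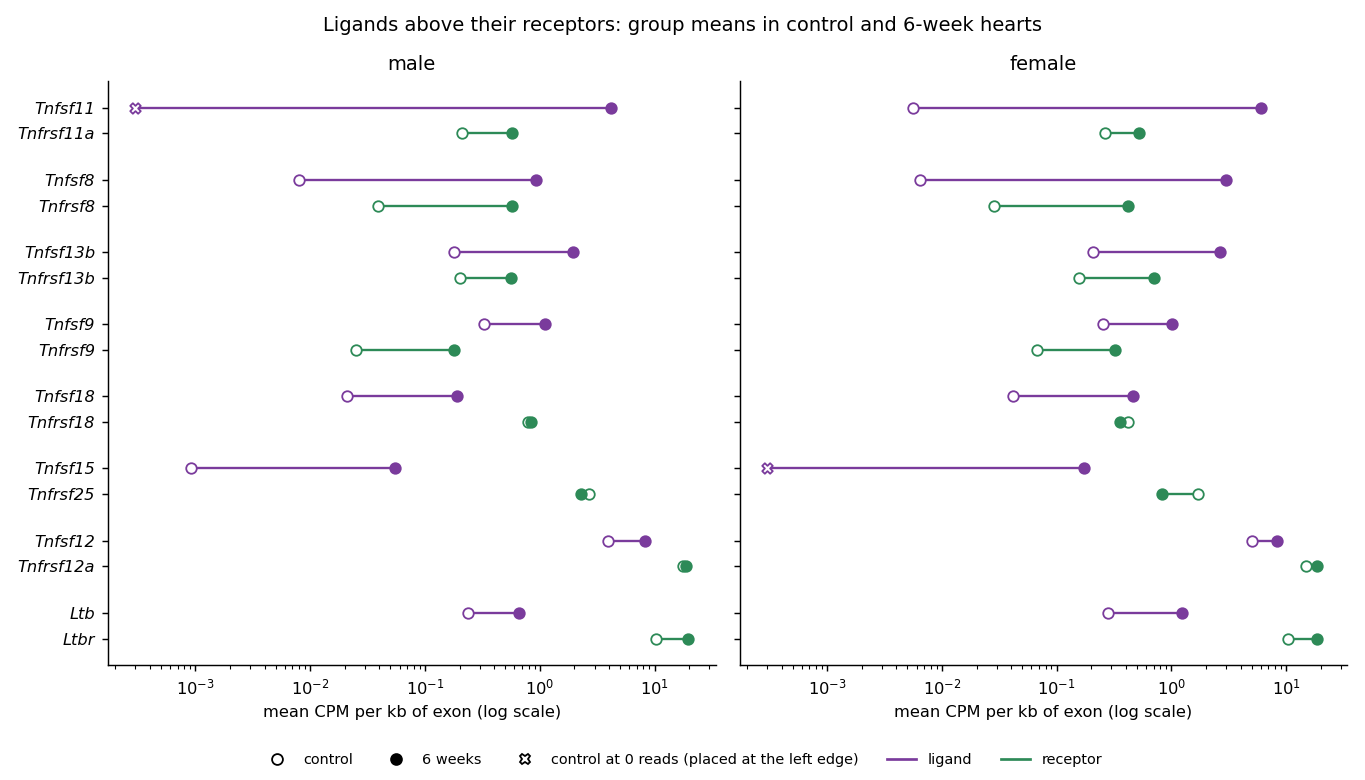
Mean CPM per kb of exon (x axis, log scale) of 8 ligands, each above a receptor it binds, in control (open) and 6-week hearts (filled), males left and females right, with a cross at the left edge where control libraries held 0 reads. The ligands *Tnfsf11*, *Tnfsf8* and *Tnfsf13b* end to the right of their receptors, while *Tnfsf15*, *Tnfsf12* and *Ltb* stay to the left.

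Between weeks few members differed. No member of 45 was called from 1 to 3 weeks in males and 1 in females (*Tnfsf13b*), where 0.0177% and 0.218% of all genes were called. From 1 to 6 weeks 1 member was called in males (*Tnfsf13b*) and 4 in females (*Tnfsf11*, *Tnfsf8*, *Tnfsf13b* and *Tnfrsf8*), against 0.165% and 1.03% of all genes, all 5 of them higher at 6 weeks. From 3 to 6 weeks limma called 0 members and 0% of all genes in each sex, and edgeR and DESeq2 also called 0 members. For males from 1 to 3 weeks edgeR called 0 members, and DESeq2 called 2 of 36 tested members and 282 of 14947 genes. At an unadjusted p under 0.05, 5, 7 and 3 members differed in males from 1 to 3, 1 to 6 and 3 to 6 weeks, where 16%, 15.4% and 6.33% of all genes did, and 13, 12 and 11 in females, where 10%, 12.6% and 15.2% did. Among those called in females were both CD30 and its ligand.

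Few members were called in uninduced hearts, which held 15.5 to 49.1 CPM of *Il11* and differed from control hearts in both genotype and tamoxifen. In males limma called 0 members (4 of 45 at an unadjusted p under 0.05, where 10.6% of all genes reached it), and called 0.561% of all genes higher and 0.0354% lower. On recovered reads edgeR called 0 male members, with 97 genes higher and 3 lower of 16931. DESeq2 called 1 of 39 tested male members, with 236 genes higher and 39 lower of 15275. In females limma called 2 members higher, where 2.41% of all genes were called higher and 0.466% lower. At an unadjusted p under 0.05, 9 of 45 female members differed, where 15.4% of all genes did. For females edgeR called 2 members, and DESeq2 called 4 members, with 673 genes higher and 116 lower of 16944. *Tnfrsf1a* was at 47.9, 55.7, 125 and 60.4 CPM in uninduced females against 32.9 to 45.4 in controls (0.83 ± 0.20, adjusted p = 0.0234), and *Tnfrsf1b* at 13.4, 13.9, 14.2 and 16.6 against 7.70 to 10.2 (0.70 ± 0.16, adjusted p = 0.0131). Neither overlapped with control. The first call was lost without control replicate 1 or 2 or 4 (adjusted p = 0.0545 to 0.0878) or in a fit of only the 2 groups (adjusted p = 0.207) and the second without control replicate 4 (adjusted p = 0.0537).

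Uninduced female replicate 3, the one with the highest *Il11* of the group at 49.1 CPM, also had the highest *Tnfrsf1a* (125 CPM), *Ltbr* (50.8 CPM) and *Tnfsf11* (0.838 CPM, 19 reads) of the 4 uninduced females. Of the other members, some were also highest in this heart, such as *Tnfsf9*, *Traf1* and *Tradd*, and some were not. The same heart had the lowest *Tnfsf13b* of the 4 (0.926 CPM), and its *Tnfsf8* (0.264 CPM) and *Tnfrsf1b* were not the highest. *Tnfsf11* was at 0.295, 0.0593, 0.0574 and 0.0507 CPM in the uninduced males and 0.143, 0.0569, 0.838 and 0.0405 in the uninduced females, far below the 4.10 to 19.4 of induced hearts. *Tnfsf8* was at 0 to 0.285 and *Tnfsf13b* at 0.926 to 2.07 CPM in uninduced hearts of both sexes. Macrophage markers were called higher in 0 of 8 in uninduced males (299 to 432 CPM summed) and 7 of 8 in uninduced females (354 to 474 CPM), and their part in the female calls was not tested.

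Of 7 other ligands and receptors of the superfamily outside the rule, *Tnf* was listed in males and *Eda* in both sexes, and the others, *Fasl*, *Cd40lg* and *Cd70* among them, were not analysed here. *Tnf* was too low to be tested, at 0 to 0.212 CPM in controls (0 to 13 reads), 0.0461 to 0.603 at 1 week, 0.147 to 0.540 at 3 weeks and 0.0706 to 0.437 at 6 weeks, groups that overlap. *Eda*, which encodes ectodysplasin, was higher at 6 weeks in males (0.88 ± 0.19, adjusted p = 0.00155), and in females the difference was 0.41 ± 0.22 (adjusted p = 0.132).

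Downstream, 40 genes of TNF receptor and NF-κB signalling were tested in each sex, and at 6 weeks 8 were called higher and 2 lower in males and 12 and 4 in females, where 16.2% and 10.9% of all male and 21.7% and 21% of all female genes were called. The pair that was called and changed by 1 or more on the log2 scale in both sexes was *Nfkbie*, an NF-κB inhibitor induced by the pathway (1.61 ± 0.23 and 2.45 ± 0.24, from means of 1.92 and 1.45 CPM in controls to 7.09 and 9.47), and *Tifa*, an adaptor that binds TRAF6 (1.49 ± 0.21 and 1.84 ± 0.132, from 1.93 and 1.73 to 6.21 and 7.49). At 1 week 10 genes were called higher and 3 lower in males and 9 and 2 in females, and at 3 weeks 8 and 0 in males and 9 and 2 in females. Of all genes, 18.9% and 14.6% of male and 15.3% and 13.1% of female ones were called higher and lower at 1 week. At 3 weeks these shares were 13.2% and 8.1% in males and 16.8% and 14.5% in females. The counts describe the list and are no test of it.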

How the data were processed

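PolyA RNA was sequenced from mouse hearts and, per the labels and the study's methods, reads were aligned to GRCm39 with STAR, counted on Ensembl genes with featureCounts and scaled with edgeR by the authors. Whether counting used strand is not given in the sources used here. The deposited values, 1 table per sex, are called CPM, but columns sum to 817395 to 1196278, so they are a signal: the deposited read counts divided by 1 factor per library. Whole reads (within 0.001) were recovered for 100% of values. The design had assumed plain CPM, and the test was kept.

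Libraries were grouped by their labels, and 2 male libraries with conflicting labels were left out. Values of at least 0.5 in at least 3 libraries were tested as log2(CPM + 0.5) with limma 3.58.1 (R 4.3.3, trended variance, all 5 groups of a sex in 1 fit), with Benjamini-Hochberg adjustment over all genes of the table and a threshold of 0.05. This is an adjusted p from a model across all genes. A fold change on this scale understates that of low genes. Against controls at or under 3 reads, a lower bound was computed from 3 reads. The members and gene lists were chosen with earlier results of these data known. Described in full were members called with a change of 1 or more on the log2 scale in any comparison of induced hearts with control, their ligand or receptor partners, and members called between weeks or in uninduced hearts. Alternatives were edgeR 4.0.16 and DESeq2 1.42.0 on recovered reads, pseudocounts of 0.1 and 2, other filters and scalings, a minimum fold, fits of only the groups compared, a replicate block, other placements of the conflicting libraries, and leaving out each library. On recovered reads edgeR called 2881 genes higher and 1785 lower in males at 6 weeks, and 3687 and 3381 in females. Fits were tested on simulated data. Promoters are from RefSeq (GRCm38.p6) and gene positions from GENCODE (GRCm39). Replicates are separate hearts, and bounds cover counting error only.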

Additional observations from a re-analysis of the deposited data

Results flagged for a closer look

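Among 157 groups of 4 libraries examined for the members described in full and *Il11*, 16 held 1 library far from the other 3. Chance gives about 1 in 20, but the groups share libraries and some hold few reads, so no excess is read from this. Among ligands, *Tnfsf11* was at 0.295 CPM in uninduced male replicate 1 (others 0.0507 to 0.0593) and at 0.05003 in female control replicate 3, with 0 in the others. *Tnfsf13b* was at 0.926 CPM in uninduced female replicate 3 (others 1.423 to 1.497), *Tnfsf18* at 0.853 in male 3-week replicate 2 (others 0.263 to 0.309) and *Tnfsf9* at 0.605 in female 1-week replicate 1 (others 1.09 to 1.17).

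Among receptors, *Ltbr* was at 55.0 CPM in male 1-week replicate 4 (others 39.6 to 41.7), 43.5 in female 1-week replicate 2 (others 37.9 to 38.3) and 37.0 in female 3-week replicate 4 (others 39.3 to 39.7). *Tnfrsf1b* was at 22.9 CPM in female 3-week replicate 2 (others 32.29 to 32.99), *Tnfrsf11a* at 3.05 in male 3-week replicate 1 (others 4.95 to 5.42) and *Tnfrsf13b* at 1.39 in female 1-week replicate 1 (others 1.71 to 1.75). *Ngfr* was at 0.368 CPM in male 3-week replicate 4 (others 1.48 to 1.67), *Tnfrsf9* at 0.0484 in female control replicate 2 (others 0.215 to 0.250) and *Tnfrsf17* at 0.0744 in female 1-week replicate 2 (others 0.335 to 0.391). *Tnfrsf25* was at 7.43 CPM in female control replicate 4 (others 4.18 to 4.50) and at 1.12 in female 1-week replicate 2 (others 3.64 to 4.52).

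Of the 2 male libraries left out for conflicting labels, the one titled control and described as 6 weeks held 511 CPM of *Il11* (controls 0 to 0.147), 12.3 of *Tnfsf11* (controls 0), 4.72 of *Tnfsf8* (controls 0 to 0.0757), 12.6 of *Tnfsf13b* (controls 1.10 to 1.42), 94.1 of *Tnfrsf1a* (controls 30.2 to 40.2), 44.2 of *Tnfrsf1b* (controls 8.37 to 13.2) and 5.09 of *Traf1* (controls 1.17 to 1.66). The one titled 6 weeks and described as control held 0.597 CPM of *Il11* and 0.119 of *Tnfsf11*, above the controls, and 0 of *Tnfsf8*, 1.07 of *Tnfsf13b*, 34.3 of *Tnfrsf1a*, 10.8 of *Tnfrsf1b* and 1.47 of *Traf1*, within or below the control ranges.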

How the results depend on the processing

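With a minimum log2 fold change of 1, members called at 1, 3 and 6 weeks were 8, 8 and 11 in males (23, 16 and 19 without it), 7, 13 and 13 in females (14, 20 and 24), and 0 in uninduced females (2). With the conflicting libraries placed by title, male calls were 12, 0 and 0, and 0 from 1 to 6 weeks (1). Placed by description, that last count was 2, as it was with a pseudocount of 2. Scaling by total reads gave 1 call in uninduced males (0) and 27 in females at 1 week. DESeq2 gave 1 in uninduced males, 2 in males from 1 to 3 weeks (0) and 4 in uninduced females. From 1 to 6 weeks in females (4) a pseudocount of 0.1 gave 2, and fitting only the groups compared gave 2, with 0 for males from 1 to 6 weeks and 1 for uninduced females. These causes were not tested. All-gene counts are not set beside the member counts of this paragraph, which show only how those depend on the setting. Leaving out 1 library gave 15 to 20, 11 to 15 and 12 to 21 calls in males at 1, 3 and 6 weeks (15 without control replicate 3, 12 without control replicate 1) and 0 to 1 from 1 to 6 weeks (0 without 1-week replicate 1 or 6-week replicate 3 or 4). In females it gave 13 to 16, 18 to 20 and 21 to 25, with 0 to 5 for uninduced hearts (0 without control replicate 4, 1 without control replicate 1 or 2, 5 and 4 without uninduced replicate 1 and 4) and 3 to 7 from 1 to 6 weeks (7 without 1-week replicate 2).

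Replicate numbers did not pair the hearts: deviations of same-numbered libraries had a mean correlation of 0.013 in males and 0.025 in females. With a replicate block, 19, 13 and 20 members were called in males and 16, 20 and 23 in females at 1, 3 and 6 weeks. Of all 16931 male genes 5148, 3354 and 4480 were then called, and of all 16956 female genes 4866, 5331 and 7256.

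For the members described in full, 2126 values over 122 results kept direction and side of the threshold, 141 lost it, 40 gained it and 29 turned in direction, all of the last uncalled. *Ngfr* in females at 3 weeks became -0.0518 with edgeR and -0.0455 with DESeq2, and ranged from -0.20 to 0.38 when 1 library was left out. *Tnfrsf18* so ranged from -0.0851 to 0.24 in males at 3 weeks, -0.13 to 0.19 in males at 6 weeks and -0.0417 to 0.37 in females at 1 week. It became -0.0219 in males at 6 weeks by description and 0.0166 in females at 6 weeks under total reads. *Tnfrsf25* ranged from -0.46 to 0.14 in males at 3 weeks, -0.40 to 0.20 in males at 6 weeks and -0.17 to 0.11 in females at 3 weeks without 1 library. Under total reads it became 0.0318 and 0.0220 in males at 3 and 6 weeks and 0.25 in females at 3 weeks, and 0.0124 by title in males at 6 weeks. *Tnfsf13* at 1 week ranged from -0.15 to 0.0346 in males and -0.18 to 0.10 in females without 1 library, and became 0.15 in males and 0.13 in females under total reads and 0.0046 by title in males. Low depth limits ligands and receptors with few reads in controls, for which only bounds are given.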
